A study of Mus musculus with 5 samples.

Results

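Cytotoxic T cells kill through granules that hold granzymes, a family of serine proteases, together with perforin, which lets them enter the target cell. The proteases are stored bound to the proteoglycan serglycin, and the cell that makes them carries a serpin that blocks granzyme B. The genes described here are 10 granule genes, taken by gene name from a deposited table of 11564 genes: the granzymes Gzma, Gzmb, Gzmc, Gzmk and Gzmm, the pore former Prf1, the granule proteins Nkg7, Srgn and Ctsw, and the inhibitor Serpinb9. All 10 were found and all 10 were tested.

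The RNA came from sorted mouse CD8 T cells, in 3 libraries labelled PHD2-deltaT (described as PHD2 knockout) and 2 labelled WT. Egln1 encodes PHD2, an enzyme that uses oxygen to hydroxylate HIF transcription factors and so sends them for destruction. The labels give no Cre driver, strain, age, tissue of origin or stimulation, and are silent on whether each library is a different animal. The p-values therefore rest on library-to-library spread, part of which may be technical. Values are normalized counts, in which each library sums to between 19593220 and 20253007, and the reads inferred behind them number 10818543 to 15382060. Egln1 itself was higher in the libraries labelled PHD2-deltaT (4922 ± 563, SD, n = 3) than in WT (2054 ± 180, SD, n = 2). Gene-level counts cannot show the deleted exons, so the genotype is given throughout as the label states it. The CD8 T cell markers Cd8a (15829 to 17936) and Cd8b1 (10833 to 11903) were abundant in every library.

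Granzyme B and granzyme C were the granule genes called higher, and the granzyme C call was near the threshold (limma-trend, adjusted p = 0.0434). Of the 10 genes, 2 were higher in the libraries labelled PHD2-deltaT and 0 lower, at an adjusted p under 0.05 in limma-trend, against 4.0% of all 11534 genes tested called in either direction, 2.97% called higher and 1.02% lower. At an unadjusted p under 0.05, where 15% of all genes tested passed (1731 of 11534), Gzmb, Gzmc, Serpinb9 and Gzmk passed. Limma-voom on inferred reads, which called 3.34% of all genes, called Gzmb and Gzmk. In the authors' deposited table, where 3.95% of genes had an FDR under 0.05, Gzmb and Gzmc did. The other granule proteins, perforin among them, did not pass. The median log2 fold change of the 10 genes was 0.20, beside -0.01 for all genes tested. Gzma and Gzmk passed the filter on low values (at least 10 in at least 2 libraries) only through their PHD2-deltaT libraries, so they had to be high there, and no count or median that includes them supports a rise of the group.

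Gzmb and Gzmc lie next to each other on chromosome 14, and their sequences are shown because these are the genes called higher. The first set is the coding stretch around the catalytic serine in each of the 5 granzymes, 42 bases read from GENCODE M21 transcripts, with the serine codon in capitals.
Gzmb: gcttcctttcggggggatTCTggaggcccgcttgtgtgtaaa
Gzmc: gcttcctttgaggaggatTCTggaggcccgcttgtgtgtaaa
Gzma: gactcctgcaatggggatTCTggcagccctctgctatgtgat
Gzmk: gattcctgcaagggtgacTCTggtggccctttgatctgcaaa
Gzmm: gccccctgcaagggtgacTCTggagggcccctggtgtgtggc
All 5 use the same serine codon. Gzmc matched Gzmb at 39 of the 42 bases, Gzmk and Gzmm at 28 each and Gzma at 27. Despite that likeness, 0% of the 50-base words in the Gzmb transcripts occur in another gene. For Gzmc 4.14% do, in Gzmd, Gzme or Gzmg, so a small part of its reads could be split between copies.

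The second set is the promoters of the genes called higher and, for contrast, of Prf1, which did not pass. Each runs from 250 bases before to 50 bases after the RefSeq start on GRCm38.p6, 5′ to 3′. Capitals mark the matches to any of the 5 motifs searched on both strands. The HIF core was written as ACGTG and, in a second form, as GCGTG. For RUNX factors the letters were TGTGGT, while AP-1 was searched with TGAGTCA. The letters searched for T-box factors were TCACACCT.
Gzmb, chr14:56262285-56262584, minus strand: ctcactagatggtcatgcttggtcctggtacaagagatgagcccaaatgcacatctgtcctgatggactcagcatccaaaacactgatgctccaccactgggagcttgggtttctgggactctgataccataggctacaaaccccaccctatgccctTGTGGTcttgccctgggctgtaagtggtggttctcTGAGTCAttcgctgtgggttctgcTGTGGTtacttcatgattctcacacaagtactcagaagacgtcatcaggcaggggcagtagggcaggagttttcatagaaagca
Gzmc, chr14:56234608-56234907, minus strand: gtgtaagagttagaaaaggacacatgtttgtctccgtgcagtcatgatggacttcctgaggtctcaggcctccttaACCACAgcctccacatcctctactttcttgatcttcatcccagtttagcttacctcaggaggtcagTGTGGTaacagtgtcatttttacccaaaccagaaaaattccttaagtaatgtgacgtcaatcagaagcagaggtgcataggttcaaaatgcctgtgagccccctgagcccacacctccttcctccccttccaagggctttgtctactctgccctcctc
Prf1, chr10:61297586-61297885, plus strand: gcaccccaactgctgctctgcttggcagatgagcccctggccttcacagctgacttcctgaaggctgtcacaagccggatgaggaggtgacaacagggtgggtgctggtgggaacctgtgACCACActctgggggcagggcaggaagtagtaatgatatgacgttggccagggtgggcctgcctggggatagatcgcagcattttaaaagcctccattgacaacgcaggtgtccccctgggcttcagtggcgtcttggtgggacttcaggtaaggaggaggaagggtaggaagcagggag
The RUNX letters begin at -93 and -34 in Gzmb, at -108 and, on the other strand, -174 in Gzmc, and at -130 on the other strand in Prf1. Positions count from the RefSeq start. The whole Gzmb window lies upstream of the GENCODE gene, whose 5′ end is 56262260, whereas the Gzmc and Prf1 windows overlap theirs. Positions in Gzmb are therefore not directly comparable with those in the other 2. The AP-1 letters begin at -58 in Gzmb. No match overlapped another in these 3 windows. Of the 10 genes, 9 had a window in the RefSeq table (Ctsw had none), and they had 11 windows in all. The RUNX letters were in 8 of the 11, beside 16.8% of all 32851 windows, and either HIF core in 4 of the 11, beside 43.8%. AP-1 letters were in 1 of the 11 (5.20% of all windows) and T-box letters in 1 (1.28%). These are matches of letters, and no binding was measured.

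Per kilobase of exon the 10 genes spanned more than 3 orders of magnitude, and granzyme B was by far the most abundant. Over the 5 libraries its level was 20352 ± 3585 normalized counts per kb (SD, n = 5), rank 23 of all genes. Nkg7 (7933 ± 589) and Srgn (3968 ± 260) came next, each with a range apart from its neighbours. Serpinb9 (1770 ± 193) and Prf1 (1750 ± 171) overlapped in range, as did Gzmc (951 ± 185) and Ctsw (772 ± 64.4). Far below them were Gzmm (35.6 ± 3.75), Gzma (11.7 ± 5.81) and Gzmk (9.07 ± 5.46), the last a pair with overlapping ranges.

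**Figure D1:**
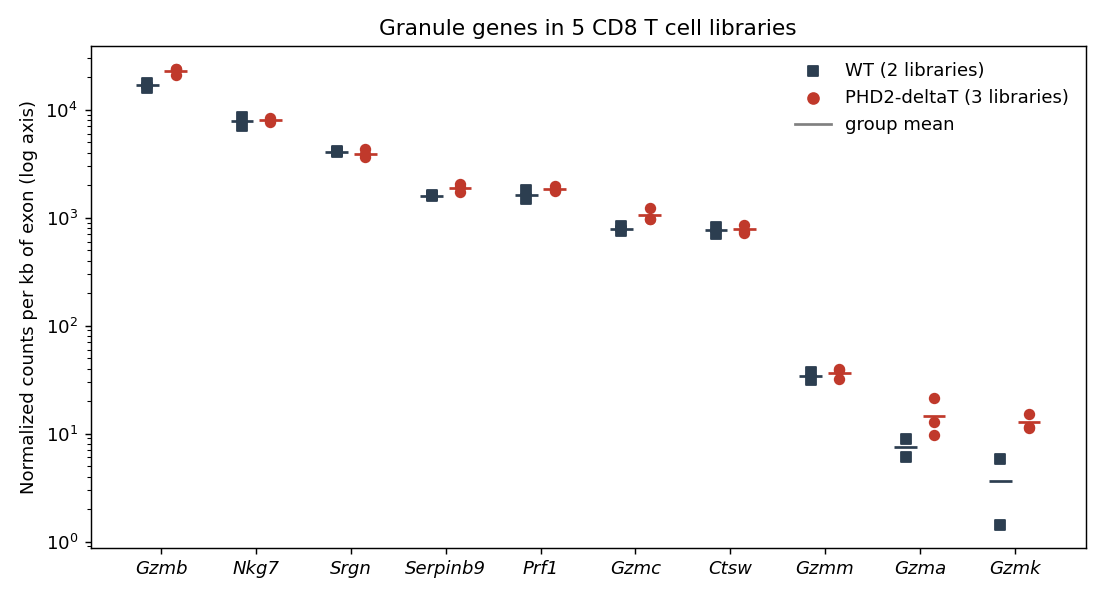
Level of each granule gene in normalized counts per kb of exon (log axis) in the 2 WT libraries (squares) and the 3 PHD2-deltaT libraries (circles), with bars at the group means. Gzmb stands highest at 15721 to 23890 per kb, and Gzmm, Gzma and Gzmk lie at or below 39.3 per kb.

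Granzyme B cuts after aspartate and starts caspase-driven death in the target cell. Its gene (ENSMUSG00000015437; mm10 chromosome 14, 56258838 to 56262260, minus strand, 5 exon blocks) gave 29717, 34305 and 33955 normalized counts in the libraries labelled PHD2-deltaT, and the WT libraries gave 25573 and 22575. The lowest PHD2-deltaT library lay above the higher WT library. On average PHD2-deltaT reached 32659 ± 2554 (SD, n = 3) where WT reached 24074 ± 2119.6 (SD, n = 2). This difference was 0.44 on the log2 scale (SE 0.09, 95% interval 0.25 to 0.63), or 1.36-fold (limma-trend, adjusted p = 0.00674). As a share of all normalized counts, Gzmb took 0.152%, 0.169% and 0.170% in PHD2-deltaT, against 0.127% and 0.114% in WT. Without WT replicate 2 the log2 fold change was 0.35 and no longer passed (adjusted p = 0.189), and limma without the mean-variance trend did not call it either (adjusted p = 0.188). In a bulk sample, a larger share of cells with a transcript and more transcript per cell cannot be told apart.

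Granzyme C, a mouse granzyme of the Gzmb cluster, moved by nearly the same factor. Gzmc (ENSMUSG00000079186; mm10 chromosome 14, 56231441 to 56234656, minus strand, 5 exon blocks) had normalized counts of 867, 1106 and 865 in PHD2-deltaT, against 746 and 668 in WT. The groups did not overlap, and the second PHD2-deltaT library stood above the other two. The log2 fold change was 0.41 (SE 0.11, 95% interval 0.18 to 0.64), or 1.33-fold (limma-trend, adjusted p = 0.0434). This call was near the threshold: it was lost without PHD2-deltaT replicate 2 (adjusted p = 0.108), without WT replicate 1 (0.0700) and without WT replicate 2 (0.371). Limma-voom on inferred reads (0.0541), the filter at 50 (0.0507), quantile normalization (0.0763) and the fit lacking a trend (0.317) lost it too, so it was kept in 8 of 15 alternatives.

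Of the 18 protein-coding genes annotated within 300 kb of the Gzmb and Gzmc pair, 3 had values in the table. The third, Cenpj, which encodes a centriole protein, had normalized counts of 224, 201 and 239 in PHD2-deltaT, against 206 and 254 in WT, and its log2 fold change was -0.05 (limma-trend, adjusted p = 0.924). The granzymes Gzmd, Gzme, Gzmf, Gzmg and Gzmn of the same cluster were not analysed here.

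The remaining granzymes were scarce. Gzmk, a granzyme with trypsin-like specificity (mm10 chromosome 13, 113171608 to 113225908), gave 15.7, 21.3 and 16.0 normalized counts in PHD2-deltaT, and WT gave 8.05 and 1.98. These values rest on 12, 15 and 10 inferred reads against 4 and 1. The groups did not overlap, but the log2 fold change of 1.83 (SE 0.55, 95% interval 0.66 to 3.01) did not pass (limma-trend, adjusted p = 0.0831). It depended on the WT libraries, at 2.63 (adjusted p = 0.0243) without WT replicate 1 and 1.03 (0.599) without WT replicate 2. With limma-voom on inferred reads the log2 fold change was 2.10 (adjusted p = 0.050, just under the threshold).

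Gzma, the trypsin-like granzyme that resembles Gzmk and lies beside it on chromosome 13, had normalized counts of 9.80, 21.3 and 13.0 in PHD2-deltaT, against 6.04 and 8.92 in WT. Between 3 and 15 inferred reads stood behind each value, and the exact Poisson intervals of every library overlapped. Its log2 fold change was 0.84 (SE 0.50, limma-trend, adjusted p = 0.489). Gzmm, a granzyme that cuts after methionine or leucine, had 56.9, 46.6 and 57.9 against 54.4 and 46.6 normalized counts. Its groups overlapped, with a log2 fold change of 0.09 (limma-trend, adjusted p = 0.925). The 95% interval of -0.41 to 0.59 means that changes inside it were not excluded. These intervals cover counting error and library spread only.

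Gzmb made up nearly all granzyme signal in every library, so its share had little room to rise. Per kb of exon, Gzmb supplied 95.3%, 94.8% and 95.8% of the summed granzyme signal in PHD2-deltaT, against 95.3% and 95.2% in WT. Mean shares of 95.3% ± 0.502 (SD, n = 3) in PHD2-deltaT and 95.2% ± 0.0378 (SD, n = 2) in WT gave a difference within the spread between libraries (two-sided exact permutation p = 1). With 10 arrangements of the 5 libraries, the smallest two-sided p that this design allows is 0.2, so no difference in these shares could have passed. Gzmc supplied 3.92% to 4.91% in PHD2-deltaT, against 4.46% and 4.52% in WT. Gzmk supplied 0.0466% to 0.0608% against 0.0310% and 0.00864%, and Gzmm 0.126% to 0.178% against 0.198% and 0.192%, both without overlap (exact permutation p = 0.2 each). For Gzmk the filter on low values favoured that order. The Gzmm counts themselves overlapped between the groups (log2 fold change 0.09), while the sum that divides them was nearly all Gzmb. Neither share therefore shows a change of Gzmk or Gzmm itself. The summed granzyme signal was 21724, 25194 and 24677 normalized counts per kb in PHD2-deltaT, against 18692 and 16510 in WT, without overlap (exact permutation p = 0.2).

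Perforin oligomerises in the target membrane to form the pore. Prf1 (ENSMUSG00000037202; mm10 chromosome 10, 61297833 to 61304680, plus strand, 3 exon blocks) had normalized counts of 4540.3, 4602 and 5017 in PHD2-deltaT, against 4639 and 3806.5 in WT. The groups overlapped, since the first WT library lay above both lower PHD2-deltaT libraries. The log2 fold change was 0.17 (SE 0.08), and its 95% interval of -0.01 to 0.35 reached from no change to a rise of 0.35 (limma-trend, adjusted p = 0.386). Leaving out WT replicate 1 gave 0.31 and leaving out WT replicate 2 gave 0.02, neither of them called.

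Serglycin, the proteoglycan core that holds granzymes and perforin in the granule, was the member with a negative estimate. Srgn (mm10 chromosome 10, 62493833 to 62527451) had normalized counts of 7911, 9399 and 8431 in PHD2-deltaT, against 8799.5 and 9026 in WT. Both WT libraries lay within the PHD2-deltaT range. The log2 fold change was -0.06, with a 95% interval of -0.22 to 0.11 (limma-trend, adjusted p = 0.825).

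Nkg7, a granule membrane protein needed for efficient degranulation, had normalized counts of 7046, 7643 and 7371 in PHD2-deltaT, against 7768 and 6425 in WT. All 3 PHD2-deltaT values lay between the WT values. Its log2 fold change was 0.06, with a 95% interval of -0.12 to 0.23 (limma-trend, adjusted p = 0.841). Ctsw, the cysteine protease cathepsin W of cytotoxic lymphocytes, had 1617, 1418 and 1371 against 1547 and 1329 normalized counts. Its groups also overlapped, with a log2 fold change of 0.03 and a 95% interval of -0.16 to 0.22 (limma-trend, adjusted p = 0.933).

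Serpinb9 encodes the cytosolic inhibitor that protects cytotoxic cells from their own granzyme B. The gene (mm10 chromosome 13, 33003250 to 33017957, plus strand) had normalized counts of 6025, 7108 and 6636 in PHD2-deltaT, against 5534 and 5619.6 in WT. The groups did not overlap. The log2 fold change was 0.24 (SE 0.08, 95% interval 0.07 to 0.40), which did not pass (limma-trend, adjusted p = 0.110) except without PHD2-deltaT replicate 1 (0.30, adjusted p = 0.0374).

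Gzmb, Gzmc and Serpinb9 had PHD2-deltaT values entirely above the WT values. So did Gzma and Gzmk, for which the filter on low values favoured that order. None of the 10 genes lay entirely below, where 30.5% of all genes tested had groups without overlap, 16.0% above and 14.5% below. In the authors' deposited table, whose fold changes are WT over PHD2-deltaT, Gzmb stood at -0.40 (FDR = 2.1e-05), Gzmc at -0.34 (FDR = 0.0268) and Serpinb9 at -0.22 (FDR = 0.0801). The FDR was blank for Gzma and Gzmk, and the authors' selection of 151 genes held none of the 10.

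**Figure D2:**
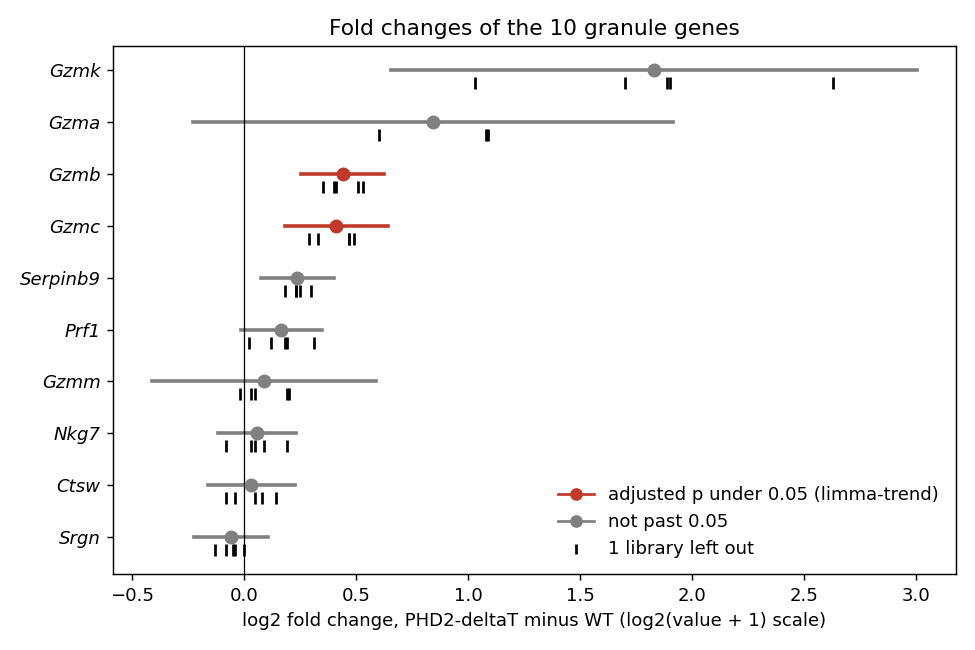
Log2 fold change (PHD2-deltaT minus WT) of each granule gene with its 95% interval. Ticks below each point are the estimates with 1 library left out. Gzmb (0.44) and Gzmc (0.41) are past the threshold, and the wide intervals of Gzmk (0.66 to 3.01) and Gzma (-0.23 to 1.91) belong to the scarcest genes.

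Ratios within a library do not depend on how libraries were scaled, and 6 of them, chosen after the values were seen, set Gzmb against other granule genes. Gzmb over Prf1 was 6.54, 7.46 and 6.77 in PHD2-deltaT, against 5.51 and 5.93 in WT, a log2 difference of 0.27. Gzmb over Srgn was 3.76, 3.65 and 4.03 against 2.91 and 2.5, a log2 difference of 0.50. Both ratios were higher in every PHD2-deltaT library.

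The ratios of Gzmb to Nkg7 (log2 difference 0.38), Ctsw (0.41) and Serpinb9 (0.20) also stood higher without overlap. For these 5 ratios the two-sided exact permutation p was 0.2, the smallest possible, and 0.24 adjusted over the 6 ratios, so none passed. Gzmb, itself higher without overlap, is the numerator of all 5. They therefore largely repeat its own difference and add no separate support. Gzmb over Gzmc was 34.3, 31.0 and 39.3 in PHD2-deltaT, against 34.3 and 33.8 in WT. It overlapped between the groups, with a log2 difference of 0.03 (exact permutation p = 0.8).

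**Figure D3:**
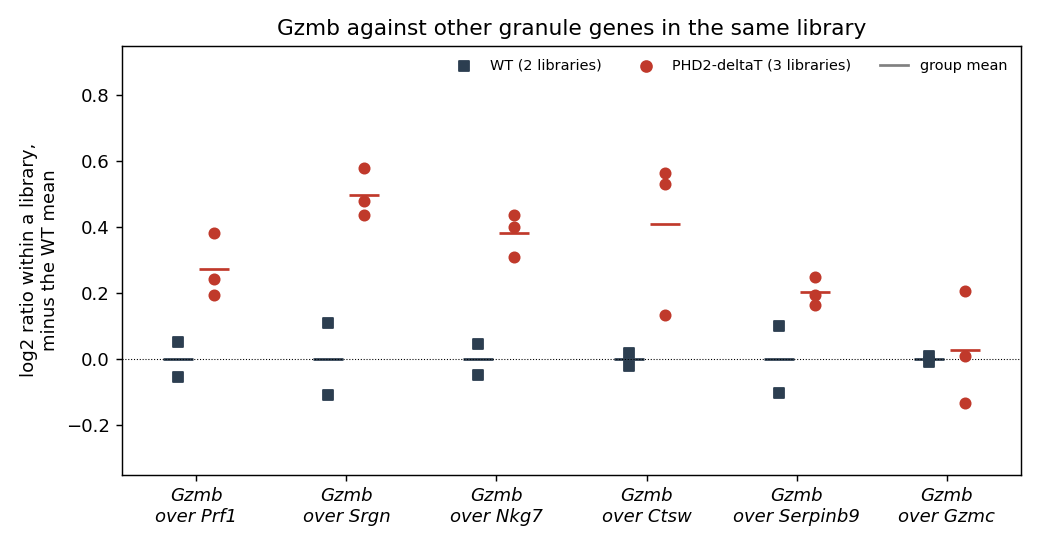
Log2 ratio of Gzmb to another granule gene within each library, minus the WT mean of that ratio, for the 2 WT (squares) and 3 PHD2-deltaT libraries (circles), with bars at the group means. The groups are apart for Prf1, Srgn, Nkg7, Ctsw and Serpinb9, and overlap for Gzmc.

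The genes whose profile over the 5 libraries was closest to that of Gzmb were found by the root mean square difference of row-centred log2 values among 9491 genes with a mean of at least 50. They were Junb (0.027), an AP-1 subunit, then St6galnac6 (0.029), Rcn3 (0.030), Pgp (0.039) and Isoc2b (0.041). Junb had normalized counts of 5814, 6832 and 6569 in PHD2-deltaT, against 4849 and 4285 in WT, a log2 fold change of 0.49 (limma-trend, adjusted p = 0.00174). Rcn3 (adjusted p = 0.0076) and Pgp (0.00519) were also higher in limma-trend, and St6galnac6 (0.316) and Isoc2b (0.162) did not pass. Genes picked for a profile close to that of Gzmb share its difference between the groups. Their fold changes and p-values thus follow from the choice and add no support. With 5 libraries such likeness is a description only.

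Other genes of the granule pathway were read from 6 lists with 67 genes, of which 57 were measured and tested. Of the 57, 3 were higher and 1 lower (limma-trend, adjusted p under 0.05), beside 2.97% and 1.02% of all genes, and their median log2 fold change was 0.05. The calls were spread over 3 lists. Without PHD2-deltaT replicate 1, WT replicate 1 or WT replicate 2 the count was 2 in each case, namely Serpina3g and Serpina3f.

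Serpins were the list with the largest values, with a median of 0.61. Of 4 tested, 2 were higher and 0 lower, beside 2.97% and 1.02% of all genes. Serpina3g, an inhibitor of cysteine cathepsins rather than of granzymes, had normalized counts of 431, 671 and 409 in PHD2-deltaT, against 206 and 187 in WT. Every PHD2-deltaT library was well above WT, a log2 fold change of 1.32 (SE 0.17, limma-trend, adjusted p = 0.000122). Its neighbour in the same family, Serpina3f, had 138, 122 and 110 against 63.4 and 62.4, a log2 fold change of 0.95 (limma-trend, adjusted p = 0.00524). Both are in the authors' deposited selection. Of their 50-base transcript words, 15.5% (Serpina3g) and 10.6% (Serpina3f) also occur in each other or in relatives such as Serpina3h and Serpina3i, so their separate values are uncertain. Serpinb6b (0.17, adjusted p = 0.288 in limma-trend) and Serpinb6a (0.27, adjusted p = 0.395) did not pass, and Serpinb9b and Serpinb1a were not analysed here. Without the trend Serpina3g was not called (adjusted p = 0.104).

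Of 21 transport and release genes, 1 was higher and 0 lower, beside 2.97% and 1.02% of all genes. Their median was 0.03. Sytl3, a synaptotagmin-like protein that binds Rab27, had normalized counts of 1399, 1386 and 1416 in PHD2-deltaT, against 1146 and 1145 in WT. Its libraries were tight within each genotype, with a log2 fold change of 0.29 (limma-trend, adjusted p = 0.0398), but the call was lost in every fit that left out 1 library (adjusted p from 0.0528 to 0.238).

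Stx11, a syntaxin of granule fusion, stood at 0.31 (limma-trend, adjusted p = 0.0581), Ap3b1 of the AP-3 sorting complex at -0.16 (0.323) and the small GTPase Rab27a at 0.15 (0.347). The priming factor Unc13d had a log2 fold change of -0.04 (limma-trend, adjusted p = 0.895). Some alternatives gained a call: Stx11 was called with array weights, and Lyst without PHD2-deltaT replicate 3. With all libraries Lyst stood at -0.23 (limma-trend, adjusted p = 0.513), and its groups overlapped.

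Of 11 genes of the lysosome membrane and of sorting, 0 were higher and 1 lower, beside 2.97% and 1.02% of all genes. Their median was -0.09. Gnptab, which starts the mannose 6-phosphate tag that sorts lysosomal enzymes, had normalized counts of 1643, 1697 and 1676 in PHD2-deltaT, against 2017 and 2054 in WT. The log2 fold change was -0.28 (limma-trend, adjusted p = 0.0343), and the call was lost without PHD2-deltaT replicate 1 (0.0948), PHD2-deltaT replicate 3 (0.0634), WT replicate 1 (0.153) or WT replicate 2 (0.265). The proton pump subunit Atp6v1a stood at -0.22 (limma-trend, adjusted p = 0.127), the mannose 6-phosphate receptor Igf2r at -0.20 (0.268) and the lysosomal enzyme subunit Hexa at 0.11 (0.602). Lamp1, the degranulation marker, stood at -0.08 (limma-trend, adjusted p = 0.695).

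Of 8 tested genes for granule proteases and their processing, 0 passed in limma-trend, 0 in limma-voom and 0 at an unadjusted p under 0.05, and the median was 0.03. Ctsc, the dipeptidyl peptidase that activates granzymes, had normalized counts of 2703, 2853 and 2603 in PHD2-deltaT, against 3005 and 2989 in WT. Its WT libraries were both higher, but the log2 fold change of -0.14 did not pass (limma-trend, adjusted p = 0.378). Ctss (0.17, adjusted p = 0.412 in limma-trend) and Lgmn (-0.83, 0.425) had the next smallest p. Lgmn was scarce, at 10.8, 10.1 and 9.99 normalized counts in PHD2-deltaT, against 26.2 and 13.9 in WT. Its PHD2-deltaT values lay near the filter minimum of 10. Cst7, which encodes the cathepsin C inhibitor cystatin F, stood at -0.01.

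Of 11 genes for the glycosaminoglycan chains of serglycin, 0 passed in limma-trend or limma-voom and 2 had an unadjusted p under 0.05, a share near the 15% of all genes (median 0.09). The sulfotransferase Chst11 (0.28, limma-trend, adjusted p = 0.170), B3gat3 (0.22, 0.328) and the sulfotransferase Chst12 (0.22, 0.434) had the smallest p. Of the other granzymes and death ligands, Fasl (0.17, limma-trend, adjusted p = 0.557) and Tnfsf10 (-0.03, 0.945) were tested, and neither passed, nor did either have an unadjusted p under 0.05 or pass in limma-voom.

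**Figure D4:**
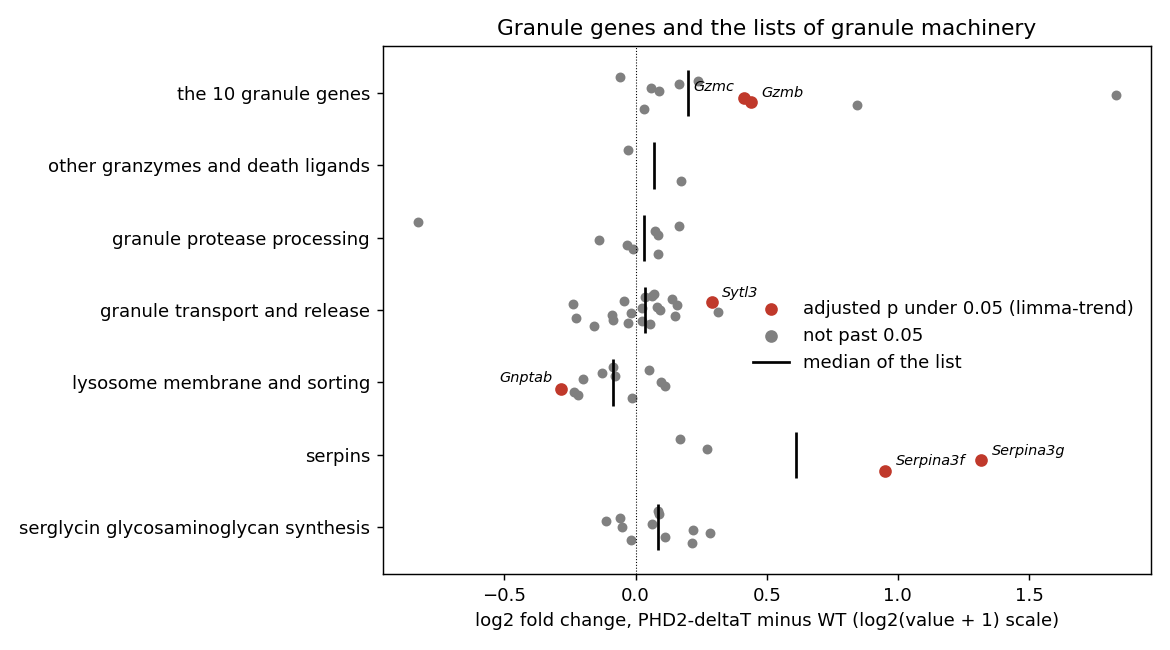
Log2 fold change (PHD2-deltaT minus WT) of every tested gene in the 10 granule genes and the 6 lists, 1 dot per gene, with a bar at each list's median. Red dots passed an adjusted p of 0.05: Gzmb, Gzmc, Sytl3, Serpina3f and Serpina3g to the right of 0, and Gnptab to the left.

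Markers of other cells that carry granule proteins were read beside Gzmb and Gzmc. Of 9 natural killer cell markers 3 were analysed (Klrb1c, Klre1 and Klri2), with summed normalized counts of 176 to 223 in PHD2-deltaT, against 198 and 202 in WT, and 0 passed in limma-trend or limma-voom, with 2 at an unadjusted p under 0.05 (15% of all genes). Of those, Klrb1c passed the filter only through its PHD2-deltaT libraries. Klrb1c had 12.7, 21.3 and 10.98 against 4.03 and 5.94. Klre1 was also higher, at 69.6, 101 and 68.9 against 67.4 and 44.6 (log2 fold change 0.51, limma-trend, adjusted p = 0.345). Its groups did not overlap, where 16.0% of all genes tested lay wholly above. Klri2 went the other way at 93.1, 100.3 and 112 against 127 and 152. The sum therefore mixes markers that moved in opposite directions. Of 7 mast cell and basophil markers Kit alone was analysed, at 219 to 260 against 205 and 219 normalized counts. Of 5 plasmacytoid dendritic cell markers 3 were analysed and Bst2, which interferon also induces, was higher (log2 fold change 0.35, limma-trend, adjusted p = 0.00758). Tcf4 (-0.25, limma-trend, adjusted p = 0.771) and Ccr9 (-0.03, 0.960) did not pass. Of all genes tested, 2.97% were called higher. Of 7 CD8 T cell markers 0 passed, also unadjusted and in limma-voom, with sums of 68884 to 71712 against 76658 and 70494. Of the 7, 3 lay wholly below WT, where 14.5% of all genes tested did. These were Trac (log2 fold change -0.16), Cd3e (-0.15) and Cd3g (-0.12), while Trbc2, Cd8a, Cd8b1 and Cd3d overlapped. Summed B cell markers (3 of 6 analysed) stood at 215 to 265 normalized counts in PHD2-deltaT, against 188 and 184 in WT, and CD4 T cell markers (3 of 4) at 92.9 to 109 against 65.4 and 66.4. Neither sum overlapped between the groups, as was so for 30.5% of all genes tested (16.0% higher in PHD2-deltaT). Summed myeloid markers (2 of 7) stood at 116.5 to 135 against 123 and 119.9, a sum of genes that moved in opposite directions. Cebpb was higher without overlap, at 52.9, 54.7 and 61.9 against 25.2 and 39.6 (log2 fold change 0.82, limma-trend, adjusted p = 0.115). Cd68 stood at -0.34 (limma-trend, adjusted p = 0.509), with overlap. From the gamma delta and NKT list only Trdc was analysed, at 49.9 to 61.8 against 60.4 and 57.5. Trdc marks gamma delta cells, so NKT cells were not covered. In these 4 lists 0 genes passed in limma-trend or limma-voom, and 1 B cell, 1 CD4 T cell and 1 myeloid marker had an unadjusted p under 0.05, which 15% of all genes had. Their part in the Gzmb and Gzmc results was not tested.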

How the data were processed

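RNA sequencing of 5 mouse CD8 T cell libraries was read from a table deposited by the authors. The genome build mm10 and the tools HTSeq 0.9.1, STAR 2.5.3 and Trimmomatic 0.36 are named per the submitters' processing notes. How the authors scaled, tested and set the strand is not given in the sources used here. Deposited values are a normalized signal (normalized counts per the file headers), beside log2 fold changes that the authors deposited. The deposited adjusted p-values carry the heading FDR. In each library the values are whole multiples of a step (tolerance 1e-06) with gaps, from which reads were inferred. These depths are inferences. Spreadsheet-damaged names (17) were restored from gene IDs, and 11538 of 11564 IDs matched the reference names.

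The fit used limma 3.58.1 under R 4.3.3 with a mean-variance trend (limma-trend) on log2(value + 1), genotype only, over 11534 genes with at least 10 in at least 2 libraries. Benjamini-Hochberg adjustment ran over all of them, with a threshold of 0.05, two-sided. Fold changes on this scale understate those of low genes. The fit was also run on simulated counts, with the same dispersion for every gene and changes larger than those of Gzmb and Gzmc. That run therefore lends no support to these calls or to values of scarce genes. Lengths and positions came from GENCODE M21 (GRCm38), promoters from RefSeq (GRCm38.p6). Figures were drawn with matplotlib 3.10.9, and tables made with pandas 2.3.3 and scipy 1.17.1 under Python 3.11.15.

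Members and lists were chosen with earlier results of these data known. The text names all members, every called list gene, up to 3 further genes per list with the smallest p, and the genes nearest to Gzmb in profile. Unc13d, Lamp1, Cst7 and Lyst were added after their values were seen. Alternatives were other pseudocounts (0.5 and 10), filters (none and 50), scalings and variance models, and each library left out. Limma-voom on inferred reads was added after seeing the data. Replicate numbers only name libraries and pair nothing.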

Additional observations from a re-analysis of the deposited data

How the results depend on the processing

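Of 206 values of 14 named genes under the alternatives, 176 kept direction and side of the threshold, 23 lost the call, 3 gained it and 4 changed sign. The sign changed for Gzmm (-0.02), Nkg7 (-0.08) and Ctsw (-0.08) without WT replicate 2 and for Ctsw (-0.04) without PHD2-deltaT replicate 1, none of them called; without WT replicate 1 the values were 0.20 (Gzmm), 0.19 (Nkg7) and 0.14 (Ctsw). The number of the 10 granule genes called was 1 with the filter at 50, 1 under quantile normalization and 0 in limma without the trend, where 1 of the list genes and 96 of all genes were called. With 1 library left out the counts ran from 0 to 3 granule genes, 2 to 3 list genes and 244 to 523 of all genes. The count of granule genes was 0 without WT replicate 2. The difference in the Gzmb share of granzyme signal, PHD2-deltaT minus WT, was 0.0533 percentage points, and -0.207 to 0.294 with 1 library left out, negative without PHD2-deltaT replicate 3. The causes were not tested. Gzma gave no value with the filter at 50 or without PHD2-deltaT replicate 2 or 3, and Gzmk none with the filter at 50, since they then failed the filter. A fit that leaves 1 WT library assumes that it varies like the PHD2-deltaT libraries. Depth limits Gzma, Gzmk and Gzmm, with 1 to 44 inferred reads per library. No paired analysis was possible because the labels give no replicate numbers.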
